A study of Mus musculus with 2 samples.

Results

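The regions described here are the 2420 autosomal 2-probe runs of a mouse tiling array, short stretches of genome covered by exactly 2 probes. A run was formed by joining probes of a chromosome with no more than 500 bp between the end of one and the start of the next, and the 2-probe runs were 11.6% of 20920 autosomal runs. The array had 21369 runs in all, on build mm8. Outlier flags removed at least 1 probe from 67 of the 2-probe runs, and 2353 kept both probes. Of these, 1869 were well above background in both dyes at both probes on both arrays.

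Hypothalamic genomic DNA came from non-agouti female mice, whose strain mixture at both ages is given as C57BL/6J with C3H/HeJ. Mice 21 days old (P21, at the end of suckling) were compared with newborn mice (P0) on 2 arrays, called A and B, each carrying DNA of both ages. The dyes were exchanged: array A carried P0 in Cy5 and P21 in Cy3, and array B the reverse. The design names biological replicates in a paired comparison, and the number of mice behind each DNA sample is not given in the sources used here. Both arrays lay on the same slide and were scanned together, so every p-value below measures only the spread between these 2 arrays.

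DNA methylation is the addition of a methyl group to cytosine, mostly where a guanine follows it, and it is set and lost in a cell-type-specific manner as the brain matures. The assay, methylation-specific amplification microarray, cuts 500 ng of DNA with SmaI, which does not cut its site when the central CpG is methylated. XmaI then cuts the same sequence where methylation had protected it and leaves an overhang, so that an adaptor can join and fragments with methylated sites at both ends are amplified by PCR. A higher ratio of P21 over P0 therefore reads as more amplifiable, methylated fragment at P21, and a lower ratio as less. In whole hypothalamus, a change in methylation within cells and a change in the mixture of cells cannot be told apart. All values below are log2 ratios of P21 over P0 averaged over the probes of a run, unless called a brightness, which is the mean log2 intensity over both dyes and arrays. Genes, exons and CpG islands at the mm8 positions were not analysed here, and no sequence of these runs was used here.

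Over the whole array 90526 probes were measured, 89726 passed the outlier flags, no spot was saturated, and 92.3% of the kept probes were well above background in every channel. Arrays A and B had 30 and 775 outlier spots. The number of arrays limits the precision: limma had 1 residual degree of freedom per run, plus 5.58 from a spread shared over 18761 tested runs.

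The 2-probe runs leaned towards lower signal at P21. Their median log2 ratio was -0.12, and 10% of them lay below -0.58 and 10% above 0.28. Averaged over runs, array A gave -0.058 and array B gave -0.19, or -0.12 ± 0.091 (SD, n = 2). The 9077 autosomal 4-probe runs with all probes kept had array means of 0.066 and 0.058. Both arrays were below 0 in 49.2% of the 2-probe runs, against 32.0% of the 4-probe runs, and both were above 0 in 17.5% against 32.7%. With 2 arrays, an exact sign permutation test cannot give a p below 0.5.

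By limma with Benjamini-Hochberg adjustment over all tested runs at 0.05, 205 of the 2353 2-probe runs were called lower at P21. That is 8.71% (95% Wilson interval 7.64% to 9.92%), where 3.99% of all tested runs were called lower. Another 101 were called higher, 4.29% (3.55% to 5.19%), where 7.65% of all tested runs were. Lower calls thus made up 67.0% of the 306 calls in 2-probe runs. Of the 4-probe runs 302 (3.33%) were called lower and 795 (8.76%) higher. Intervals on shares of runs cover counting error only, since runs share the same DNA samples, arrays and often neighbours.

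The share called lower fell with the number of probes, from 8.71% at 2 probes to 6.16% at 3, 3.33% at 4, 2.10% at 5 to 8 and 0.484% at over 8. The share called higher went the other way, from 4.29% through 5.11%, 8.76% and 8.87% to 12.1%. The number of probes also sets how many values a run averages, which the comparison with pairs of probes taken from 4-probe runs addresses further on.

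A rule of size that uses neither a p-value nor the shared spread gave smaller numbers. It asks for a mean at least 2-fold lower, with each array about 1.5-fold lower or more, or the mirror image for gains. By this rule 38 of the 2-probe runs were lower (1.61%, interval 1.18% to 2.21%), against 0.501% of all tested runs and 0.353% of 4-probe runs. It found 50 higher (2.12%), against 3.71% of all tested runs and 4.53% of 4-probe runs. Applied to red over green ratios with the direction of array A not turned, so that only dye differences add up, the rule took 1 of the 2-probe runs and 0.0426% of all tested runs, in either direction.

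The arrays differed in how many low values they held. On array A 44 of the 2-probe runs were at -1 or lower (1.87%), on array B 94 (3.99%), and 16 on both. At 1 or higher there were 59 on array A and 51 on array B, 35 of them shared. Across the 2353 runs the arrays correlated at r = 0.57, against 0.76 across the 4-probe runs, a description over runs that share a slide. By rank the arrays correlated at 0.49 in both kinds of run. The median distance between arrays was 0.24 for 2-probe and 0.20 for 4-probe runs, with brightness not held equal. At like brightness the order varied: 0.35 and 0.30 among the dimmest runs, 0.18 and 0.20 in a middle class, and 0.29 and 0.34 among the brightest.

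**Figure D1:**
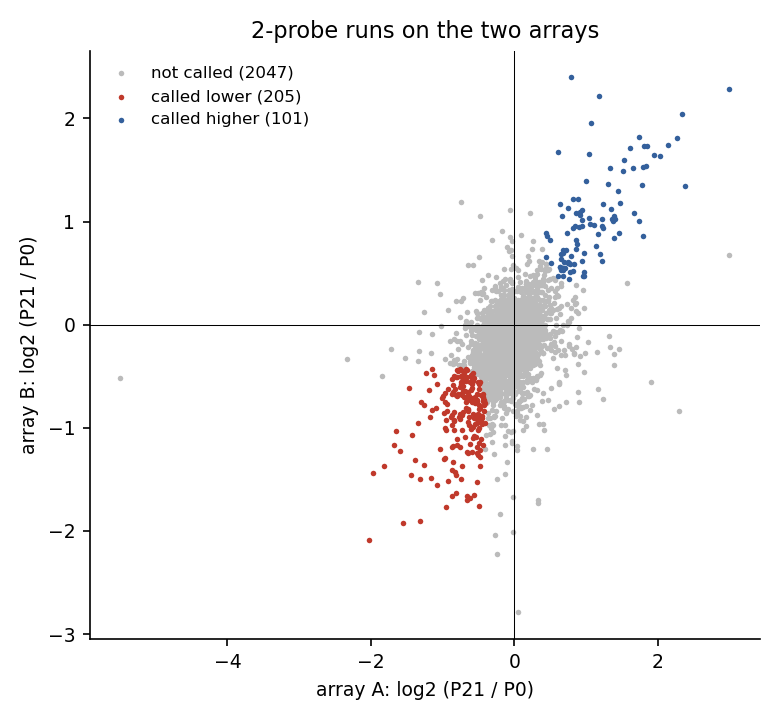
Log2 ratio of P21 over P0 of each 2-probe run on array A (horizontal) and array B (vertical), 1 point per run with both probes kept. The 205 runs called lower by limma (red) and the 101 called higher (blue) lie where both arrays have the same sign, and the cloud of runs not called (grey) is centred below 0 on array B.

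The 2-probe runs were dimmer and shorter than the 4-probe runs. Their median brightness was 8.47, against 10.6, and their median span 302 bp, against 587 bp. Gaps between the 2 probes ran from an overlap of 54 bp (written as -54 bp) to 500 bp, with a median of 196 bp, and probes were 45 to 60 nt long. Brightness and span both went with the share of lower calls, so each was held in classes.

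In classes holding equal numbers of 2-probe and 4-probe runs pooled by brightness, from 1 (dimmest) to 10, lower calls among the 2-probe runs were most frequent in class 2, at 15.5%, against 9.38% of the 4-probe runs there. The shares were 10.96% and 7.47% in class 1, 10.3% and 4.18% in class 3, 9.45% and 4.84% in class 4, and 9.20% and 3.14% in class 5. In classes 6 and 7 the 2-probe runs stood at 3.83% and 3.72%, and the 4-probe runs at 1.98% and 1.62%. In classes 8 to 10 this order was absent: 1 of 264 2-probe runs was called lower (0.379%, interval 0.0669% to 2.11%), against 40 of 3165 4-probe runs (1.26%). The lower calls of 2-probe runs were thus found among dim to middling runs, and the brightest 2-probe runs had a median ratio of 0.063.

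**Figure D2:**
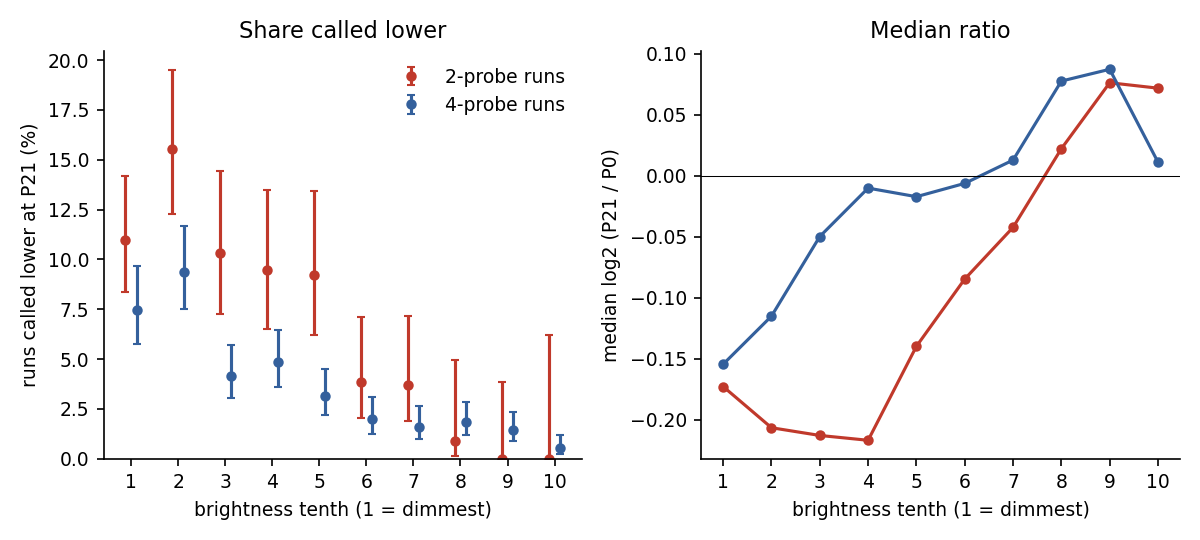
Left, percent of runs called lower at P21 by limma in each brightness class (1, dimmest, to 10) for 2-probe (red) and 4-probe (blue) runs, with 95% Wilson intervals that cover counting error only. Right, the median log2 ratio in the same classes. The 2-probe runs are above the 4-probe runs on the left in classes 1 to 7, and their median is lowest in class 4, at -0.22.

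Detection moved with the share as well. Among the 1869 2-probe runs well above background in every channel, 145 were called lower (7.76%), against 212 of 8027 4-probe runs (2.64%). Among the 484 others, 60 were called lower (12.4%), against 90 of 1050 4-probe runs (8.57%). These calls are from the fit over all kept probes. When limma was refitted on probes well above background alone, 255 of the 1869 2-probe runs were called lower and 108 higher. Of the 205 lower calls, 16 had P21 not well above background at any spot, so that their size is only a bound.

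By span, 1.76% of the 170 2-probe runs under 100 bp were called lower. In steps of 100 bp from there the shares were 5.60%, 9.25%, 11.2%, 11.2% and 9.91%, the last for spans of 500 to 599 bp. The 4-probe runs from 100 to 799 bp lay between 1.16% and 2.99%, and rose to 9.80% at 1300 to 1399 bp. Median brightness fell over the same 2-probe classes, from 10.8 under 100 bp to 7.53 at 500 to 599 bp.

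Lower calls were then compared at the same brightness and span. Runs were placed in strata of brightness class and 100 bp of span, strata with at least 5 runs of each kind were kept, and each was weighted by its 2-probe runs. This left 46 strata with 2170 of the 2-probe and 3914 of the 4-probe runs. In them 9.26% of 2-probe and 3.37% of 4-probe runs were called lower, a difference of 5.89 percentage points (95% interval 4.27 to 7.51). The 2-probe share was larger in 29 strata and smaller in 12. For higher calls the shares were 4.52% and 5.17%, a difference of -0.650 points (-1.90 to 0.600).

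The rule of size gave 1.71% and 0.314% lower in the same strata, a difference of 1.39 points (0.810 to 1.97). On array A alone 1.94% and 0.494% were at -1 or lower, and on array B alone 4.29% and 0.868%. For gains of the same size the difference was 0.115 points (-0.663 to 0.893). The mean log2 ratio differed by -0.11 on array A, and array B gave -0.15, a difference of -0.13 ± 0.034 (SD, n = 2). An exact sign permutation test of 2 arrays cannot give a p below 0.5.

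A 4-probe run averages more values, so it was also represented by its first 2 probes by position, with brightness and span of that pair. Limma was refitted with these pairs, so the calls of the 2-probe runs themselves changed too. In 56 strata with 2340 of the 2-probe runs and 8842 pairs, 6.45% and 3.76% were called lower, a difference of 2.70 points (1.56 to 3.83). In the main fit and strata the shares were 9.26% and 3.37%, so the 2-probe share was the one that moved more. The rule of size then gave 1.62% and 1.08%, a difference of 0.548 points (-0.0544 to 1.15). Here the gains differed: 3.93% of 2-probe runs and 6.82% of pairs were called higher, a difference of -2.89 points (-3.89 to -1.88). Inner pairs of 4-probe runs gave 2.64 points for lower and -3.62 points for higher calls. With the same number of probes averaged and the spread shared over all runs, 2-probe runs had more lower calls by limma and fewer higher calls. The interval for losses of at least 2-fold included 0. With a prior spread of its own for each number of probes, the difference in lower calls from first pairs reversed, to -2.19 points (-3.10 to -1.29).

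The limma comparison depended on how the spread between arrays was shared. With a prior spread of its own for each number of probes, 77 of the 2-probe runs were called lower and the difference from 4-probe runs was -1.08 points (-2.49 to 0.332). Against the first 2 probes of 4-probe runs under this setting it was -2.19 points (-3.10 to -1.29). With a prior that follows brightness it was 9.11 points. The difference in mean log2 ratio uses no prior and was below 0 under every alternative tried, from -0.18 with no strata to -0.012 for runs over 2000 bp from other probes. It does not separate more losses from fewer gains.

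Among the settings that kept the same 2353 runs, those with normexp background correction gave the fewest calls. With normexp and loess 45 of the 2-probe runs were called lower and 42 higher, and the difference from 4-probe runs was 0.969 points for limma and -0.00672 points for the rule of size. With normexp and no loess 1 was called lower and 5 higher. That setting also applied no dye normalization, so background correction and the missing dye normalization cannot be told apart there. All 205 lower calls kept a ratio below 0 under both normexp settings, with medians of -0.28 and -0.59 in place of -0.75. Normexp was run with an offset of 50 added to all signals, which by construction shrinks the ratios of dim spots.

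**Figure D3:**
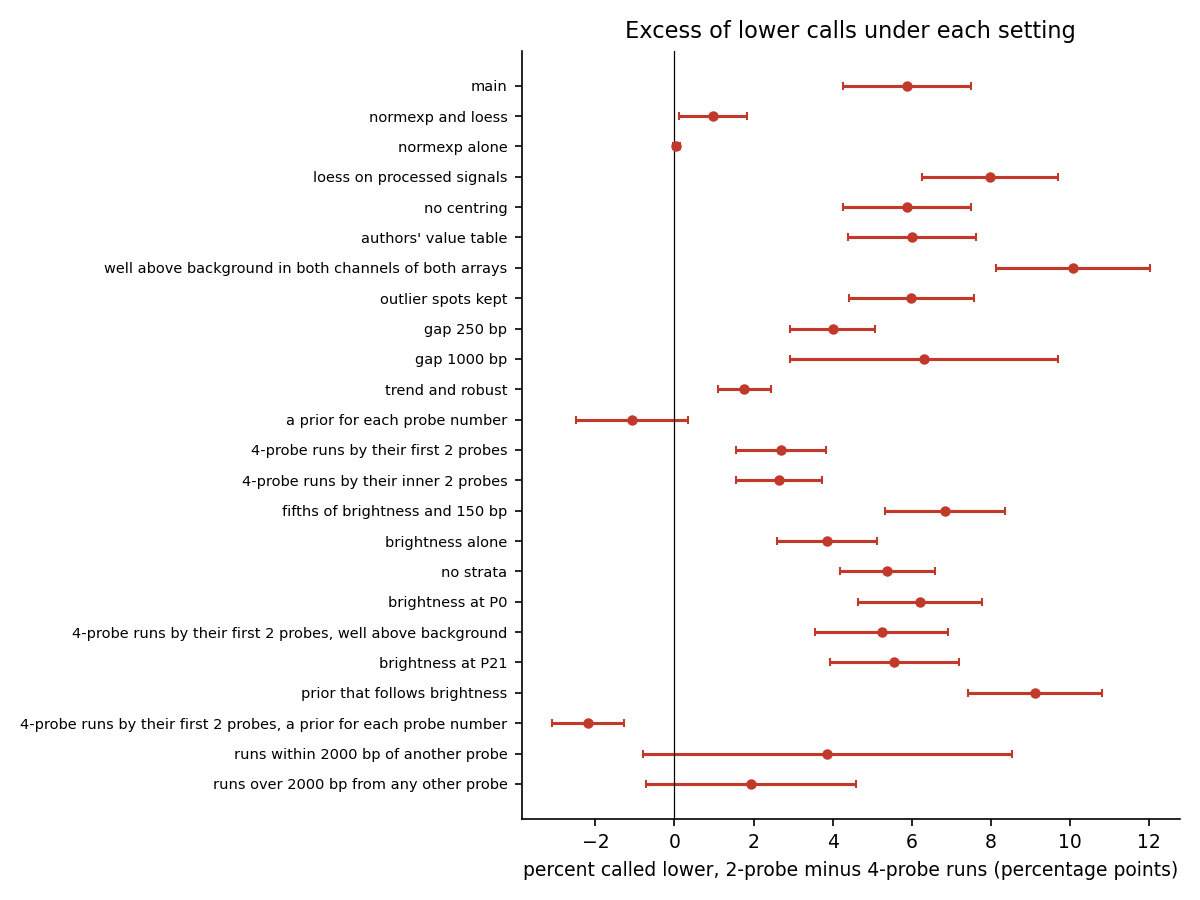
Standardised difference in the percent of runs called lower by limma, 2-probe minus 4-probe runs, in percentage points (horizontal), under the main setting (top) and each alternative (vertical), with 95% intervals that cover counting error only. The main value is 5.89, and the points left of 0 are both settings with a prior for each probe number, at -1.08 and -2.19.

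Most 2-probe runs were not alone in the genome. Of the 2353, 1822 had a probe outside the run within 1000 bp, 108 had the nearest one over 1000 and up to 2000 bp away, and 423 had none within 2000 bp. The share called lower was 9.50% in the nearest class and 20.4% in the next. Beyond 2000 bp it was 2.36% (10 runs, interval 1.29% to 4.30%), with 12 called higher (2.84%). Of the 38 runs lower by the rule of size, 37 had a probe within 2000 bp. For the 1930 nearer runs the mean ratio of arrays A and B was -0.077 and -0.22, and for the 423 isolated ones 0.028 and -0.040.

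Brightness and span moved with isolation. The isolated 2-probe runs had a median brightness of 10.6 and a span of 122 bp, and the nearer ones 8.16 and 343 bp. The crude difference of 7.74 percentage points in lower calls (5.76 to 9.72) was 2.65 points (-0.322 to 5.63) in 12 strata of brightness and span, which held 314 nearer and 310 isolated runs. The difference in mean ratio went from -0.14 ± 0.053 (SD, n = 2) to -0.019 on average, array A giving -0.017 and array B giving -0.021.

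The 4-probe runs were seldom near another probe: 524 of 9077 were within 2000 bp of one, and 6.11% of these were called lower, against 3.16% of the 8553 others. The main comparison of 2-probe with 4-probe runs did not hold isolation equal. In strata of brightness and span, isolated 2-probe runs differed from isolated 4-probe runs by 1.93 points in lower calls (-0.730 to 4.59). Nearer 2-probe runs differed from nearer 4-probe runs by 3.87 points (-0.798 to 8.53). Both intervals include 0. The first rests on 255 2-probe and 264 4-probe runs and the other on 622 and 129.

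Neighbouring runs resembled each other. In 1546 2-probe runs whose nearest run lay within 1000 bp and was tested, the pair correlated at r = 0.59, over runs that share the DNA samples and arrays. Where 2-probe runs were each other's nearest, the pair was counted from both sides, here and in the shares below. Of 136 lower calls in this class, the nearest run was below 0 in 110 (80.9%) and was itself called lower in 39 (28.7%). Among all 1546 the shares were 65.8% and 7.50%.

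**Figure D4:**
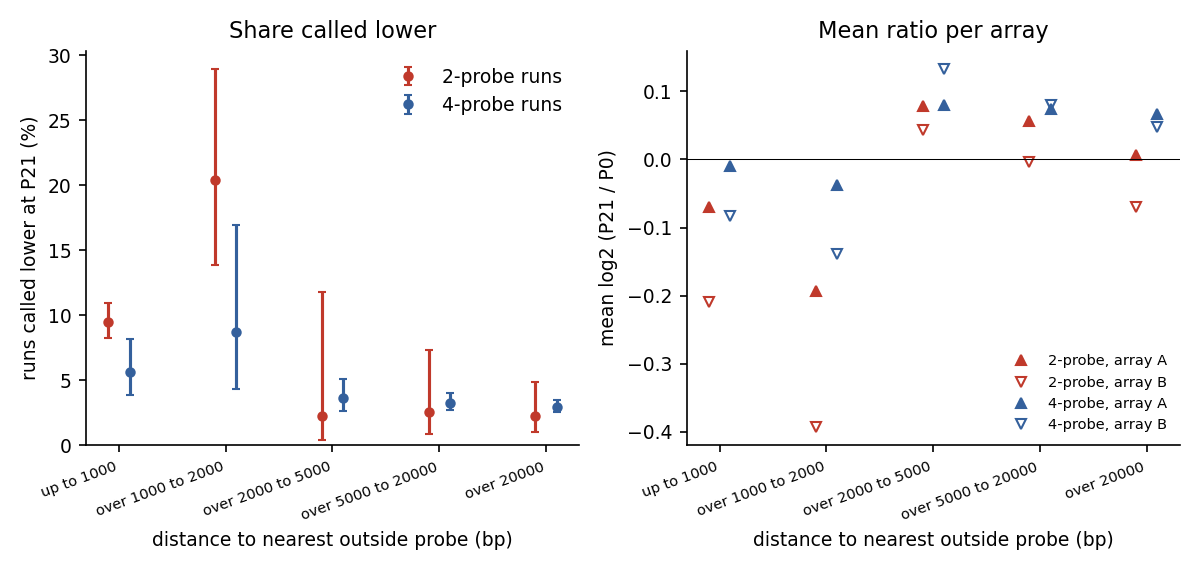
Left, percent of 2-probe (red) and 4-probe (blue) runs called lower at P21 by limma, by the distance from the run to the nearest probe outside it, with 95% Wilson intervals. Right, the mean log2 ratio of the same runs on array A (filled triangles) and array B (open triangles). In 2-probe runs the share is 9.50% and 20.4% in the nearest classes and at most 2.59% beyond 2000 bp.

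The 2 probes of a run mostly had the same sign where the run was called. Within an array they correlated at r = 0.66 on A and on B, and 0.47 and 0.49 when a probe on one array was set against its partner on the other. With gaps under 100 bp the correlations were 0.74 and 0.79, and at 300 to 500 bp 0.50 and 0.51. The first 2 probes of 4-probe runs, with a median gap of 111 bp, correlated at 0.80 and 0.81. Both probes had the sign of the call in 192 of the 205 lower and 99 of the 101 higher runs. The selection favours this agreement, since a call rests on the mean of the same probes. The lower calls had a median of -0.75, and 41 were at least 2-fold and 1 at least 4-fold. The higher calls had a median of 0.98, with 49 at least 2-fold and 3 at least 4-fold.

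By chromosome, lower calls ranged from 3.90% of 77 runs on chromosome 3 to 14.9% of 74 on chromosome 13, with overlapping counting intervals (1.33% to 10.8% and 8.51% to 24.7%). Higher calls ranged from 1.35% on chromosome 13 to 8.57% of 105 runs on chromosome 6. Every autosome had a median ratio and an array B mean below 0. On array A the mean was below 0 on all autosomes but chromosome 4, where it was 0.025.

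The lowest, highest and brightest lowered runs are named from the 143 lower and 83 higher calls in which both probes had the sign of the call on both arrays and every channel was well above background. The lowest lay at chr10:93950009-93950543, where the first probe read -2.26 on A and -1.37 on B and the second -1.69 and -1.50. Its mean was -1.70 ± 0.38 (SD, n = 2), or 3.26-fold less at P21, with a limma adjusted p of 0.00135. At chr2:155891482-155891679 the arrays read -1.81 and -1.37, a mean of -1.59 ± 0.31 and an adjusted p of 0.00133 by limma. All 4 readings of each run were below -1.3, where the choice of runs already required readings below 0.

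At chr11:97892949-97893393 the array means were nearly the same, -1.44 and -1.46, but the probes exchanged their order: the first read -1.85 on A and -1.16 on B, the second -1.04 and -1.76. The limma adjusted p was 0.000936. On chromosome 5, chr5:120843855-120844011 read -1.60 and -1.22, and the nearest other run, 698 bp away, was at -0.87. The run at chr5:137915643-137915940 read -1.26 and -1.36, while its nearest neighbour at 641 bp was at -0.11.

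At chr10:79118513-79118930 array B was lower (-1.77) than array A (-0.96), a mean of -1.36 ± 0.58. The runs at chr2:167812594-167812718 (-0.87 and -1.66) and chr11:105974836-105975198 (-0.66 and -1.70) differed between arrays in the same way. The last had the widest spread of the 10 lowest, 0.73, and a limma adjusted p of 0.0247, which became 0.0945 with a prior for each probe number. At chr2:156768441-156768738 the arrays read -1.17 and -1.49. At chr11:116366497-116366834 they read -1.43 and -1.07, and the nearest run, 767 bp away, was also low at -1.14.

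Of these 10 lowest runs, chr10:79118513-79118930 and chr2:156768441-156768738 still passed limma with normexp and loess, with adjusted p of 0.00626 and 0.00817, and the other 8 did not. They were the brightest of the 10, at 9.31 and 9.77, where the others lay between 6.81 and 8.63. With normexp alone none of the 10 passed, with adjusted p from 0.238 upwards, and every value stayed below 0. Under the trend and robust settings 3 of the 10 lost the call: chr10:79118513-79118930 (limma adjusted p = 0.0526), chr2:167812594-167812718 (0.0545) and chr11:105974836-105975198 (0.0720).

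The 3 brightest lower calls were smaller in size. At chr11:119731740-119732008, with a brightness of 12.8, the arrays read -0.67 and -0.71, a mean of -0.69 ± 0.029 (SD, n = 2), and a limma adjusted p of 0.0177. At chr15:76540231-76540557 they read -0.63 and -0.89, and the nearest run, 645 bp away, was at -0.75. At chr15:85863775-85864110 they read -0.54 and -0.87, beside a run at 0.044 some 671 bp away. All 3 passed with normexp and loess, with adjusted p from 0.0045 to 0.0223, and none with normexp alone. None passed under the trend and robust settings either, with limma adjusted p from 0.0577 to 0.0671. With a prior for each probe number both chromosome 15 runs lost the call, with limma adjusted p of 0.0510 and 0.0714.

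The highest 2-probe run lay at chr2:167850680-167850974 and read 3.0 on array A and 2.29 on B, a mean of 2.64 ± 0.50 (SD, n = 2), or 6.24-fold more at P21, with a limma adjusted p of 0.000506. It starts 37962 bp beyond the lowered run at chr2:167812594-167812718. At chr17:28806588-28806718 the arrays read 2.33 and 2.05, a mean of 2.19 ± 0.20. The nearest outside probe there was 14790 bp away, so this run is isolated. At chr8:123569486-123569669, with a brightness of 12.5, they read 2.14 and 1.74. The runs on chromosomes 17 and 8 passed limma in the main setting and under all 10 alternatives run for single runs.

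Neighbouring runs chr4:140022675-140022862 and chr4:140023394-140023774 lie 532 bp apart and were high together, at 1.84 ± 0.28 and 2.04 ± 0.32. They share a neighbourhood and are not separate instances. At chr1:174187379-174187959 array A read 2.38 and array B 1.34, and the nearest run was at 0.97. These 3 runs and the highest run on chromosome 2 did not pass with normexp, with or without loess.

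**Figure D5:**
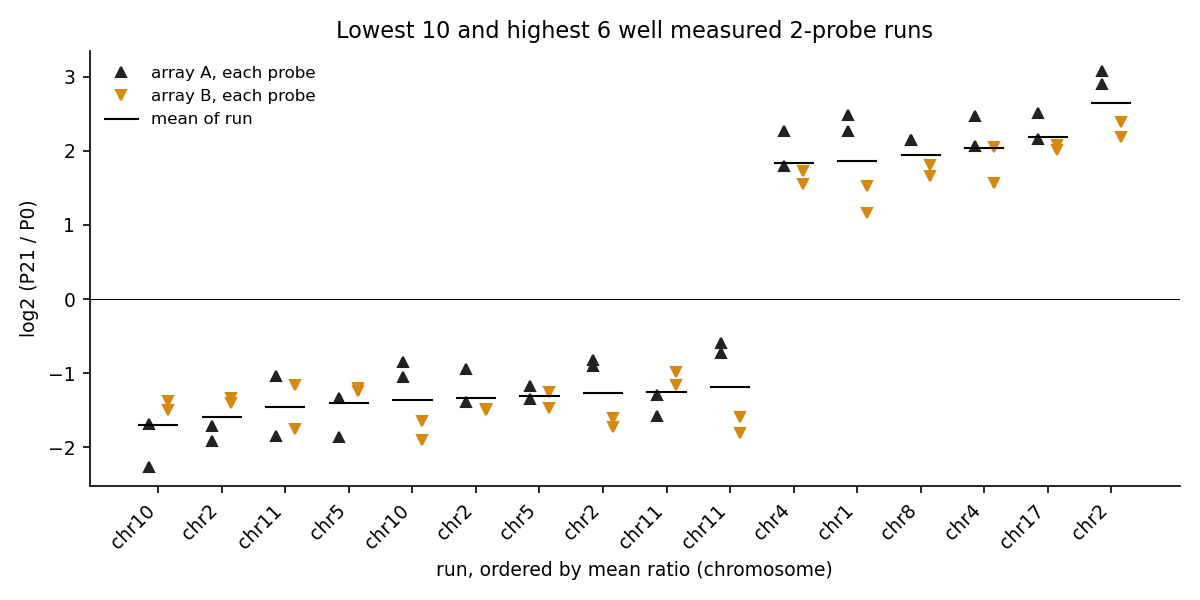
Log2 ratio of P21 over P0 at each probe of the 10 lowest and 6 highest well measured 2-probe runs, ordered by the mean of the run (horizontal bar), with array A as upward and array B as downward triangles. All probe values of the lowered runs lie below 0, which the choice of runs required, and all of the raised runs above 1.

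In 3 further runs, taken from all 2-probe runs well above background whether called or not, the probes differed most. At chr19:41800934-41801205 the first probe read 1.21 and 1.24 on arrays A and B and the second -0.11 and -0.82, so the mean of 0.38 (limma adjusted p = 0.166) hides a difference of 1.69. At chr9:121184299-121184797 the first probe read -0.17 and 0.02 and the second -1.09 and -1.97. Its limma call (adjusted p = 0.0161) was lost with normexp with or without loess, under trend and robust settings (0.0579) and with a prior for each probe number (0.0535). At chr5:118697915-118698108 both were raised, to 0.76 and 0.96 at the first and 2.28 and 2.02 at the second, and the call was lost with normexp with or without loess. Both arrays kept the order of the probes in each of these runs.

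The lowest mean of all 2-probe runs, chosen after its values were seen, rests on a single array. At chr7:139244339-139244617 array A read -5.50 and array B -0.52, with a limma adjusted p of 0.111. On array A its P21 brightness was 4.45 against 9.90 on array B, while P0 read 9.94 and 10.4.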

How the data were processed

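For each array the authors deposited an Agilent Feature Extraction file, with green and red intensity per spot, a log10 ratio of red over green and flags. Version 10.5.1.1 stands in the file headers, 9.1.3.1 in the submitters' processing notes. Per the file headers the signals are background-subtracted and dye-normalized, and positions are mm8. The deposited processed values of the series served as an alternative.

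From these, the log10 ratio was turned to log2, array A's sign was turned, control (6110 of 96645 spots) and outlier spots were dropped, each array was centred on its median, and probes were averaged per run. Runs with at least 2 kept probes were tested with limma 3.58.1 (R 4.3.3, data.table version 1.17.8; lmFit and eBayes), Benjamini-Hochberg at 0.05. The fit and the strata were tested on simulated data. Shares have 95% Wilson intervals, and differences normal intervals.

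Named runs, among well measured calls with agreeing probes, were the 10 lowest, 6 highest and 3 brightest lower, plus the 3 whose probes differed most. Members and rules were chosen with earlier results of these data known. The isolation comparison, the prior following brightness and the other added alternatives were chosen after seeing the data. GC content and restriction sites in probes, planned as descriptions, were not analysed here.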

Additional observations from a re-analysis of the deposited data

How the results depend on the processing

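Of 2-probe runs, 205 were called lower and 101 higher. With normexp and loess the counts were 45 and 42, with normexp alone 1 and 5, with a joining gap of 250 bp 380 and 497, with a gap of 1000 bp 41 and 15, and with a prior for each probe number 77 and 65. With limma's trend and robust settings 48 were lower. Gap settings define other runs.

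The standardised difference in percent lower by limma (5.89 points) fell to 0.969 under normexp and loess, to 0.0461 under normexp alone, and was 7.99 with loess on processed signals, 10.1 with well-above-background probes, 4.0 with a gap of 250 bp, 1.77 with trend and robust, 3.85 in strata of brightness alone, 9.11 with a prior following brightness, and 2.70 and 2.64 against the first and inner 2 probes of 4-probe runs. It was 3.87 for runs within 2000 bp of a probe and 1.93 beyond. It reversed to -1.08 with a prior for each probe number, and to -2.19 with that prior against first pairs.

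By the rule of size (1.39 points) it was -0.00672, reversed, with normexp and loess, 0.0180 with normexp alone, 0.712 with well-above-background probes, 0.800 with a gap of 1000 bp, 0.548 and 0.580 against first and inner pairs, 0.402 against first pairs well above background, 0.804 within 2000 bp and 0.392 beyond. Without array B it was 1.44 and without array A 3.42, by the single remaining array.

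The difference in mean log2 ratio (-0.13) came to -0.068 under normexp and loess, -0.073 under normexp alone, -0.037 and -0.067 with gaps of 250 and 1000 bp, -0.18 with no strata, and -0.012 beyond 2000 bp. Without array A it was -0.15 and without array B -0.11.

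Nearer minus isolated 2-probe runs differed by 7.74 points in lower calls: 0.602 with normexp and loess, 0.0518 with normexp alone, 9.93 with loess, 12.8 with well-above-background probes, 2.20 with trend and robust, 3.70 with a prior per probe number, 10.7 with a prior following brightness, and 2.65 in strata. In mean ratio (-0.14) they differed by -0.055 with normexp and loess, -0.22 with normexp alone and -0.019 in strata, and by -0.18 without array A and -0.10 without array B.

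The causes were not tested, beyond what each setting changes by construction. No named run changed sign under any alternative. Alternatives that change only the shared spread leave the ratio as it is, and most named runs were chosen for readings of the same sign. The unchanged sign was thus largely fixed beforehand. Each array already sets P21 against P0, so the limma test of these ratios is itself the paired comparison. The ratios form 1 group with 2 values, and no separate paired analysis was added. Dim spots limit the size of some lower calls: 16 of 205 had P21 not well above background at any spot.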
